A study of Mus musculus with 15 samples.

Results

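Interleukin-1β (IL-1β) was compared with no treatment in mouse embryonic fibroblasts (MEFs) on RNA microarrays. The comparison rested on 6 of the 15 arrays of the series, 3 from MEFs given IL-1β at 1 ng/ml and 3 from untreated MEFs. The arrays were chosen by their labels and by no measured value. The labels did not say which arrays were cultured together. The cells were 3T3, an established fibroblast line, which the study obtained as Balb/c clone A31, so all groups shared 1 clonal background. The other 9 arrays held MEFs given TNFα (10 ng/ml, 3 arrays), TGFß1 (5 ng/ml, 3 arrays) or IL-6 at 20 ng/ml together with its soluble receptor at 25 ng/ml (3 arrays). They served here to estimate the spread and to show where the response to IL-1β differed. The labels gave more than 1 culture time for the series and did not assign one to the IL-1β arrays. The study described its control, TNFα and TGFß1 arrays as biological replicates of independent experiments at the shorter of these times, and did not describe the IL-1β arrays. For these, p-values may measure only the spread between arrays.

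IL-1β signals through the receptor chain Il1r1 and its accessory protein Il1rap, which recruit Myd88 and the Irak kinases and through them activate NF-κB and stress-activated kinases. In fibroblasts, the pathway is known for switching on chemokines, cytokines, acute-phase proteins and matrix-degrading proteases. It is restrained by a decoy receptor (Il1r2), by a receptor antagonist (Il1rn) and by inhibitors that NF-κB itself induces.

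Each array reported the processed signal of 56605 probes that were not controls, and values are given as log2 of that signal minus the 75th percentile of the array (log2 units, 0 being that percentile). Between 48.3% and 54.9% of the probes were well above background on each of the 6 arrays, and no spot was saturated. Both slides held both groups: controls 1 and 11 and IL-1β arrays 5 and 10 lay on slide 1, and control 6 and IL-1β array 15 on slide 2. Arrays of the same slide correlated across probes at 0.988 to 0.993, whichever their group, and arrays of different slides at 0.974 to 0.984. The slide was therefore kept as a block. The run of label numbers was kept as a second block by design, not because of these correlations, and each group had 1 array in each run. In runs 2 and 3 the control and the IL-1β array lay on different slides. A difference within these runs can therefore include a difference between slides. Per-array values below are in the order control 1, 6 and 11 and IL-1β 5, 10 and 15, that is, by run. All 10 fibroblast markers were above background on all 6 arrays and none was called changed, their median fold-change being -0.13 (log2). Of 10 macrophage and other leukocyte markers, 5 were tested (Cd68, Csf1r, Itgam, Cd14 and Cd3e) and none was called, with a median of 0.11 and a highest value of 0.32 for Cd14. Of 6 endothelial markers only Pecam1 was tested, at 0.16 and not called. Of 6 epithelial markers 2 were tested, Krt8 at -0.56 and Krt18 at -0.18, and neither was called. The defining markers Ptprc, Adgre1, Lyz2 and Cdh5 were not well above background on any of the 6 arrays. In such bulk RNA, fewer cells of a type and less RNA per cell cannot be told apart.

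IL-1β changed a small share of the measured transcripts, and mostly upwards. At q < 0.05 and a change of at least 1.5-fold (limma with Benjamini-Hochberg adjustment over 29334 tested probes), 320 probes were called, of which 249 (0.849% of those tested) were higher and 71 (0.242%) lower with IL-1β. At 1 probe a gene, 152 of 13523 genes were called higher (1.12%) and 51 lower (0.377%). The rises were also larger: their median was 1.06 (log2), against -0.80 for the falls, and 40 of the called probes rose at least 4-fold while none of them fell so far. The 3 IL-1β arrays lay entirely above the 3 control arrays at 915 tested probes (3.12%) and entirely below them at 666 (2.27%), and this held for 209 of the 249 probes called higher and for 35 of the 71 called lower. At an unadjusted p < 0.05 there were 2131 probes higher (7.26%) and 2204 lower (7.51%), or 979 genes higher (7.24%) and 1290 lower (9.54%). Of the called probes, all 249 and all 71 differed in the called direction within slide 1, and 245 and 67 did so within slide 2. The same arrays had chosen these probes, so this agreement in direction is not separate evidence.

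The number of calls depended on the run as a block. Without it, with the slide still in the model, 97 probes were called higher and 8 lower. Of the 46 named genes called higher, 26 were still called, and of the 14 called lower, 2 were. Adjusted p-values without the run are therefore given beside most called genes. Leaving out 1 array at a time gave 154 (without IL-1β 15) to 241 (without IL-1β 10) calls, with the direction kept at all 320 probes each time. The remaining arrays had helped to choose these 320 probes, so the kept direction is not separate evidence.

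The size of some fold-changes depended on the background correction. With normexp, which used an offset of 50 intensity units, 15 of the 60 called named genes differed from the values below by more than 1.5-fold, and all 15 were closer to 0. On the log2 scale the normexp values were 6.26 for Saa3, 5.56 for Lcn2, 2.25 for Serpina3f, 1.83 for Cfb, 1.97 for Mmp13, 0.85 for Mmp9, 1.43 for Zc3h12a and 1.15 for Icam1. They were 1.01 for Csf2, 0.98 for Ccl8, 0.82 for Gpr84, 0.68 for Il1r2 and -0.74 for Gpat2. Serping1 (0.35) and Tslp (0.43) were no longer called. Within slide 1, 5 of the 60 differed by more than 1.5-fold from the values below, and within slide 2, with 1 array a group, 24 did. Lum, for example, gave 2.59 on slide 1 and 0.12 on slide 2, Hp 2.74 and 5.44, and Lcn2 7.41 and 4.73. The cause of these differences was not tested.

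**Figure D1:**
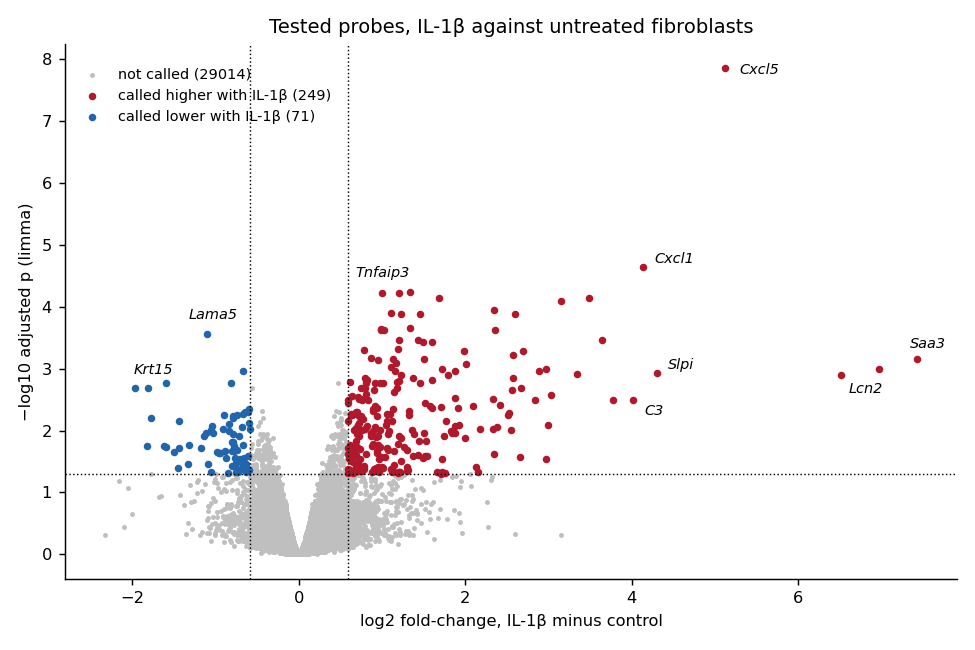
Each point is 1 of the 29334 tested probes, with the log2 fold-change of IL-1β minus control on the x axis and -log10 of the adjusted p on the y axis. Dotted lines mark the fold-change of 1.5 and the adjusted p of 0.05, and the 249 probes called higher reach much larger fold-changes than the 71 called lower.

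Among the IL-1 ligands and receptors, 1 of the 8 tested genes rose (12.5%, against 1.12% of all tested genes) and none fell. Their median fold-change was 0.24 on the log2 scale, against -0.01 for all tested genes. The gene that rose was Il1r2 (NM_010555), which encodes the decoy receptor. Its levels were -6.81, -5.40 and -5.58 in the control arrays and -4.39, -3.49 and -2.90 in the IL-1β arrays, without overlap. Only 1 control array was above background, and the fold-change was 2.33 ± 0.33 (SE), with an adjusted p of 0.00937. A second Il1r2 probe gave 0.93 and was not called, and without the run the adjusted p was 0.0845. The signalling chain Il1r1 stood at 2.13, 2.16 and 2.03 in the controls and 2.32, 2.52 and 2.27 with IL-1β, a difference of 0.26 ± 0.12 (adjusted p = 0.371). Its accessory chain Il1rap gave 0.21 and the inhibitory receptor Sigirr 0.01, neither called. The IL-33 receptor Il1rl1 gave 0.77 ± 0.22 with overlapping groups (adjusted p = 0.143). Il18, Il18r1 and Il1rl2 gave 0.22, 0.50 and 0.19, and none of them was called. The ligands Il1a, Il1b and Il33 and the antagonist Il1rn were not well above background on any control or IL-1β array and were not tested.

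None of the 19 genes of the signalling cascade downstream of the receptor was called in either direction by limma, and at an unadjusted p < 0.05 there was 1 higher and 1 lower, against 7.24% and 9.54% of all genes. Their median was -0.02. The adaptor Myd88 gave 0.05 ± 0.07, and the kinases Irak1 and Irak2 0.02 ± 0.05 and -0.02 ± 0.09, with overlapping groups for all 3 genes.

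The acute-phase proteins, secreted factors best known from the liver in systemic inflammation, held the largest rises of the comparison. Of the 22 genes of the list, 11 were tested. The others had no named probe, or their probe was not well above background on all arrays of any group. Such a filter can favour genes that a cytokine raised. Of the 11 tested, 7 rose (63.6%, against 1.12% of all tested genes) and none fell, with a median fold-change of 3.15 (log2). Saa3 (NM_011315), the serum amyloid A made outside the liver, measured -3.42, -3.46 and -3.69 in the controls and 3.20, 5.27 and 3.24 with IL-1β. The 3 control arrays lay close together, and the lowest IL-1β array was far above them. The fold-change was 7.43 ± 0.63, or 172-fold, with an adjusted p of 0.000691. Lcn2 (NM_008491), lipocalin-2, which binds bacterial siderophores, measured -4.37, -1.59 and -3.48 in the controls and 2.26, 4.72 and 3.14 with IL-1β. The arrays of run 2 were the highest of both groups, and the groups did not overlap. Its fold-change was 6.52 ± 0.62 (adjusted p = 0.00127), and a second probe gave 6.97 and was called as well.

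Slpi (NM_011414), an inhibitor of neutrophil elastase, measured -1.16, -0.75 and -2.13 in the controls and 2.93, 3.28 and 2.65 with IL-1β. This was a rise of 4.30 ± 0.40 (adjusted p = 0.00117), and a second, called probe gave 0.89. Hp (haptoglobin, NM_001329965), which binds free haemoglobin, went from -0.58, -1.76 and 0.48 to 2.68, 2.69 and 3.69. Although its controls spread over more than 2 log2 units, the groups stayed apart, at 3.64 ± 0.27 (adjusted p = 0.000345). Serpina3f (NM_001168294), a serine protease inhibitor with close relatives in the mouse genome that may share its probe, rose by 3.49 ± 0.19 (adjusted p = 7.27e-05). Cp (ceruloplasmin, NM_007752), a copper-carrying ferroxidase, rose by 3.15 ± 0.18 (adjusted p = 8.19e-05), and its 3 other tested probes were all called, at 1.72 to 2.69. Without the run as a block, Cp missed the threshold (adjusted p = 0.0589), while Saa3, Lcn2, Slpi, Hp and Serpina3f were still called (highest adjusted p 0.0138).

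**Figure D2:**
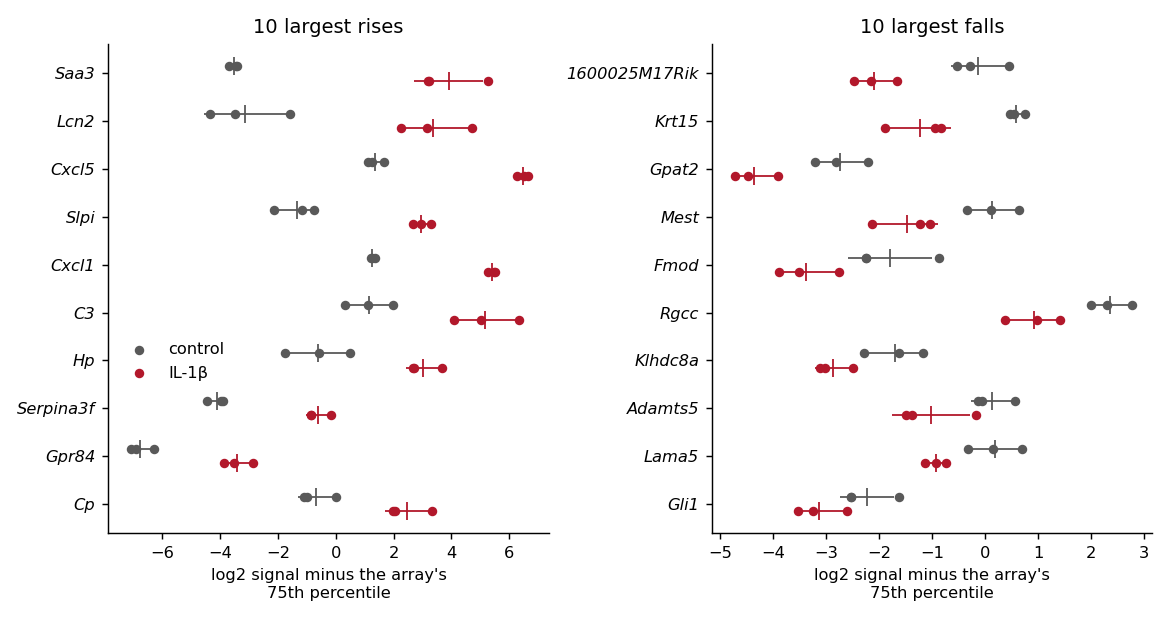
Points are the 3 control and the 3 IL-1β arrays for the 10 largest rises and falls whose groups did not overlap, and bars are the mean ± SD. The x axis is the log2 signal minus the 75th percentile of the array. Saa3 and Lcn2 are separated by over 6 log2 units between group means, and no fall exceeds 2.

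Of 6 tested CXC chemokines, 2 rose (33.3%, against 1.12% of all tested genes) and none fell (median 1.37). Both were ligands of the neutrophil receptor Cxcr2. Cxcl5 (NM_009141) measured 1.25, 1.68 and 1.12 in the controls and 6.26, 6.50 and 6.66 with IL-1β. The 6 arrays were tight within each group, and the fold-change of 5.13 ± 0.09 had the smallest adjusted p of the comparison, 1.43e-08. Cxcl1 (NM_008176) measured 1.34, 1.27 and 1.20 and 5.25, 5.47 and 5.51. Its fold-change was 4.14 ± 0.17, or 17.6-fold (adjusted p = 2.29e-05). Both were still called without the run as a block (adjusted p = 8.2e-08 and 1.39e-06). Cxcl2, another Cxcr2 ligand, was not well above background on any of the 6 arrays, and its fitted difference of 1.42 ± 0.50 was not called (adjusted p = 0.222).

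Of 12 tested CC and CX3C chemokines, which draw monocytes, T cells and dendritic cells, 5 rose and none fell (median 0.47). This was 41.7%, against 1.12% of all tested genes. Ccl5 (NM_013653) went from -1.17, -1.32 and -0.29 to 2.03, 1.80 and 1.88, a rise of 2.83 ± 0.33 (adjusted p = 0.00325). Ccl2 (NM_011333), the main monocyte attractant and far above the 75th percentile in untreated cells, went from 6.00, 6.42 and 6.37 to 8.10, 8.41 and 8.22. The IL-1β arrays stood about 2 log2 units above their controls in every run, and the fold-change was 1.99 ± 0.16 (adjusted p = 0.000514). Ccl7 rose by 1.19 ± 0.09 (adjusted p = 0.000475), Ccl8 by 1.88 ± 0.21 (adjusted p = 0.00294) and Ccl20 by 1.65 ± 0.34 (adjusted p = 0.0474). Without the run as a block, Ccl8 and Ccl20 missed the threshold, with adjusted p-values of 0.476 and 0.118, and Ccl5, Ccl2 and Ccl7 had 0.00143, 0.00335 and 0.00851.

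For the CXC chemokines, acute-phase proteins and NF-κB genes, the promoters of up to 2 genes a list with the largest rises among those with a promoter in the table (which Cxcl5 and Nfkbiz were not) are shown because these genes rose together and because IL-1β acts through sequence-specific factors. They are the 250 bases before the transcription start from RefSeq on GRCm38.p6, written 5′ to 3′ on the strand of the gene. Capitals mark matches, on either strand, to 4 motifs: GGNNTTTCC (κB, the NF-κB element), TTNNGCAA (C/EBP), TGANTCA (AP-1) and AAANNGAAA (the core of the interferon-stimulated response element, ISRE). No 2 marked motifs overlapped. Cxcl1 lies at chr5:90890995-90891244 on the plus strand, Saa3 at chr7:46715677-46715926, Lcn2 at chr2:32387740-32387989, Zc3h12a at chr4:125127882-125128131 and Tnfaip3 (first of 2 listed starts) at chr10:19015411-19015660, all 4 on the minus strand.
Cxcl1: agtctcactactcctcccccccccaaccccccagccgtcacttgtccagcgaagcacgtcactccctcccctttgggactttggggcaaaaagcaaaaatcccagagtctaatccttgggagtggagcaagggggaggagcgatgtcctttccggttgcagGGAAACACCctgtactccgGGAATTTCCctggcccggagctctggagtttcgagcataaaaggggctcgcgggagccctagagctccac
Saa3: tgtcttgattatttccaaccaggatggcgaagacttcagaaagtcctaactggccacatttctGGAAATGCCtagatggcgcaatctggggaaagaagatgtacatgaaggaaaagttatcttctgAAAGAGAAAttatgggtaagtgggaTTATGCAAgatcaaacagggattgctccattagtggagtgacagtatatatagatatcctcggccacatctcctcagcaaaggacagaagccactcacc
Lcn2: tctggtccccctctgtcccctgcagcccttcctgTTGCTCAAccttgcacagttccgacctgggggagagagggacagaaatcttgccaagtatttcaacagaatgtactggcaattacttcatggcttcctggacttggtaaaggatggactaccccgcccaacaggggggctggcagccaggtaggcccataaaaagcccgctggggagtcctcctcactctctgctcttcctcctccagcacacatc
Zc3h12a: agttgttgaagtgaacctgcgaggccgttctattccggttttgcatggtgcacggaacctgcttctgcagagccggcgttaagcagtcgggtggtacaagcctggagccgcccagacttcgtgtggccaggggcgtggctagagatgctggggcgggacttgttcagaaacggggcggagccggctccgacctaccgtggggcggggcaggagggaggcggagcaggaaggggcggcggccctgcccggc
Tnfaip3: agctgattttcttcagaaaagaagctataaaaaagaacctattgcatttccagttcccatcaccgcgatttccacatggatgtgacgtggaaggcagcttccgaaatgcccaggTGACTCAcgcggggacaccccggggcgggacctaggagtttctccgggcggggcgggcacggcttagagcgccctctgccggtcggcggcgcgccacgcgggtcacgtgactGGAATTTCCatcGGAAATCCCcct

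In the Cxcl1 promoter, κB matches began 89 and 70 bases before the start. Saa3 held a κB match at 187, an ISRE core at 124 and a C/EBP match at 99 bases before the start. Lcn2 held 1 C/EBP match, at 216 bases. Tnfaip3 held an AP-1 match at 136 bases and κB matches at 24 and 12, and the Zc3h12a window held none of the 4 letter patterns. Over the 103 genes called higher that had a promoter in the table, 14.6% held the κB letters, against 5.22% of the 10765 tested genes and 4.84% of all 27025 promoters. The C/EBP letters were in 20.4% of the 103, against 7.68% and 9.55%, and the AP-1 letters in 16.5%, against 4.88% and 6.87%. The ISRE core was in 14.6%, against 7.24% and 9.52%. Of the 37 genes called lower with a promoter, 0 held the κB letters, beside 5.22% of the tested genes. The C/EBP letters were in 3 (8.11%, beside 7.68%), the AP-1 letters in 3 (8.11%, beside 4.88%) and the ISRE core in 2 (5.41%, beside 7.24%). These counts are small, and no difference from the shares of the tested genes was tested. A match is a run of letters and not a shown binding site, and whether the letters bear on the rises was not tested.

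NF-κB subunits and the inhibitors that the factor induces held many rises. Of 19 tested genes, 9 rose (47.4%, against 1.12% of all tested genes) and none fell, with a median of 0.63. Zc3h12a (Regnase-1, NM_153159), a ribonuclease that degrades cytokine mRNAs, measured -4.50, -3.64 and -5.48 in the controls and -2.44, -1.67 and -0.87 with IL-1β. The arrays of both groups were widely spread, without overlap, and 1 control array was not above background. Its fold-change was 2.88 ± 0.27 (adjusted p = 0.0011). Nfkbiz (IκBζ, NM_030612), a nuclear cofactor for secondary NF-κB targets, measured -0.33, -0.62 and -0.53 and 0.93, 1.00 and 1.05. It rose by 1.49 ± 0.11 (adjusted p = 0.000376).

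Tnfaip3, a ubiquitin-editing enzyme that terminates the signal, varied little within groups. It measured -0.83, -0.82 and -0.77 in the controls and 0.55, 0.37 and 0.67 with IL-1β, a rise of 1.34 ± 0.07 (adjusted p = 5.74e-05). Nfkbia, the classical inhibitor IκBα, was above the 75th percentile in untreated cells and rose by 1.11 ± 0.07 (adjusted p = 0.000126). Nfkbie (IκBε) and the coactivator Bcl3 each rose by 1.23, with standard errors of 0.08 and 0.12 and adjusted p-values of 0.00013 and 0.00125. Among the subunits, Nfkb1 rose by 0.63 ± 0.08 (adjusted p = 0.00558), whereas Rela gave 0.14 ± 0.07 with overlapping groups (adjusted p = 0.42). The 7 called genes named here were still called without the run (highest adjusted p 0.0214).

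**Figure D3:**
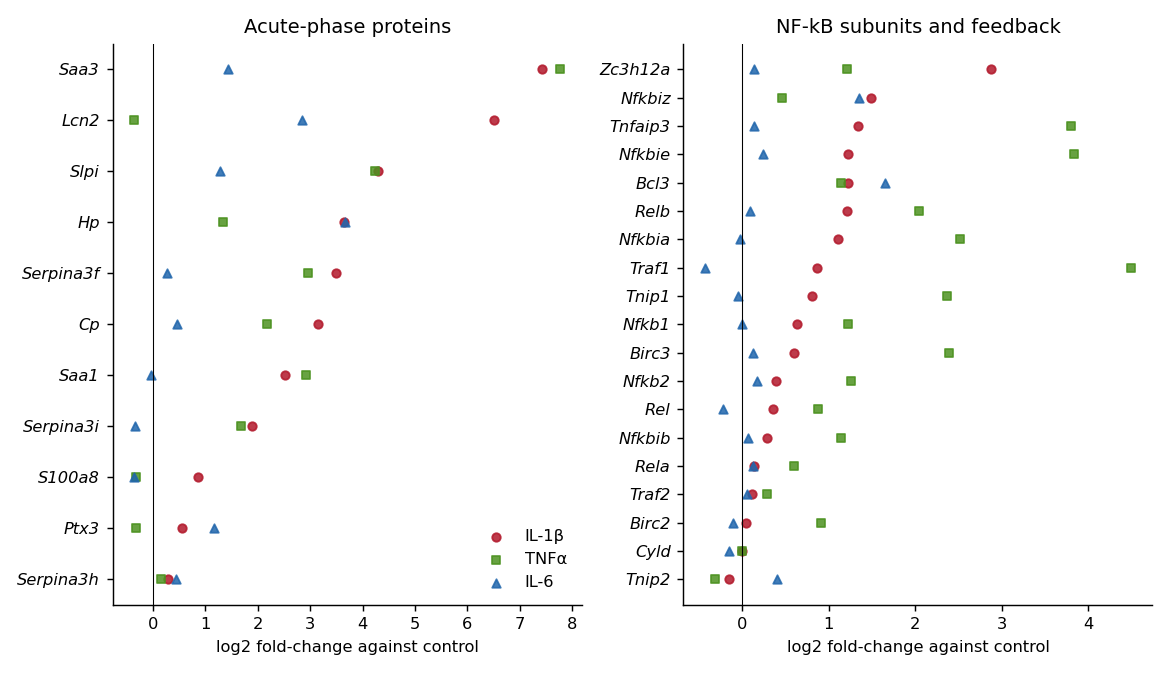
Fold-changes (log2) against the same 3 control arrays are plotted for IL-1β (circles), TNFα (squares) and IL-6 (triangles), for the 11 tested acute-phase genes and the 19 tested NF-κB genes. The 3 fold-changes of a gene share its control arrays. Lcn2 lies at 6.52 with IL-1β and -0.36 with TNFα, whereas Tnfaip3 lies at 1.34 and 3.80.

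Of 12 tested cytokines and colony-stimulating factors, 3 rose (25%, against 1.12% of all tested genes) and none fell (median 0.34). Csf2 (GM-CSF, NM_009969), a growth factor of macrophages and granulocytes, measured -5.58, -6.41 and -6.11 in the controls, with 1 array above background, and -2.66, -3.07 and -3.46 with IL-1β. The groups lay over 2 log2 units apart, and the fold-change was 2.97 ± 0.55 (adjusted p = 0.0292). Il6 (NM_031168) went from -3.27, -2.78 and -2.77 to -1.95, -1.28 and -1.10. It rose 2.83-fold (adjusted p = 0.0111), and a second, called probe gave 1.73 on the log2 scale. Tslp, a cytokine that acts on dendritic cells, rose by 1.30 ± 0.22 (adjusted p = 0.0204). Without the run as a block these 3 calls were lost, with adjusted p-values of 0.0635, 0.131 and 0.3. Csf3 was above background on 1 IL-1β array and no control array and was not tested, and Lif gave 1.08 ± 0.66 below background (adjusted p = 0.518).

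Complement genes were called higher at 4 of 14 tested members (28.6%, against 1.12% of all tested genes) and lower at none (median 0.22). C3 (NM_009778), the central component of the cascade, measured 0.30, 1.98 and 1.12 in the controls and 4.08, 6.34 and 5.03 with IL-1β. The spread within each group was wide. In each run the IL-1β array exceeded its control by more than 3 log2 units, with the arrays on different slides in runs 2 and 3. The C3 fold-change was 4.02 ± 0.46 (adjusted p = 0.00325). Cfb (factor B, NM_008198), which forms the alternative-pathway convertase with C3, went from -4.14, -3.75 and -4.74 to -1.64, -0.59 and -1.33. It rose by 3.03 ± 0.33 (adjusted p = 0.00263), with 3.00 at a second called probe. Serping1, the inhibitor of the classical-pathway proteases, was below background on every control array and above it on every IL-1β array, at least 1.82-fold higher (adjusted p = 0.0466), and with normexp 1.28-fold without a call. The protease C1ra rose by 0.70 ± 0.14 with overlapping groups (adjusted p = 0.042), and C4b gave 0.00 ± 0.16. Without the run, Serping1 and C1ra missed the threshold (adjusted p = 0.123 and 0.801), while C3 and Cfb were still called (0.0289 and 0.0411). The fatty-acid receptor Gpr84 (NM_030720), outside these lists but among the 10 largest rises, was likewise below background on all control arrays. It was at least 4.04-fold higher with IL-1β (adjusted p = 0.00123, and 0.00176 without the run), and with normexp 1.77-fold.

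Matrix-degrading proteases went both ways, with 3 of 23 tested genes of the list higher and 2 lower (median -0.18). These were 13% and 8.7%, against 1.12% and 0.377% of all tested genes. The inhibitor Tfpi2 was the lowest of the list, at -1.28, and was not called. Mmp13 (collagenase 3, NM_008607) measured -3.04, -3.15 and -2.98 in the controls and -0.16, -0.85 and -0.36 with IL-1β. It rose by 2.60 ± 0.16 (adjusted p = 0.00013). The stromelysin Mmp3 (NM_010809) went from 3.90, 4.77 and 3.96 to 5.41, 6.10 and 5.65, a rise of 1.51 ± 0.18 (adjusted p = 0.00364). The gelatinase Mmp9 rose by 1.71 ± 0.21 (adjusted p = 0.00424). The proteoglycan-cleaving protease Adamts5 fell by 1.14 ± 0.17 (adjusted p = 0.0122). The related Adamts1 fell by 1.11 ± 0.16 with overlapping groups (adjusted p = 0.011). A second Adamts5 probe gave -0.59 and was not called. Timp1, an inhibitor of these metalloproteinases, gave 0.26 ± 0.11 (adjusted p = 0.288). Without the run as a block Mmp13 was still called (adjusted p = 0.000226), but Mmp9 and Mmp3 were not (0.0747 and 0.118), nor were Adamts5 and Adamts1 (0.595 and 0.712).

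Of 40 tested genes of matrix organisation, 3 rose (7.5%, against 1.12% of all tested genes) and 1 fell (2.5%, against 0.377%), with a median of -0.08. Of these 4, Dcn, Lum and Fmod encode small leucine-rich proteoglycans, which coat collagen fibrils. Decorin (Dcn, NM_007833) measured 4.82, 5.86 and 4.53 in the controls and 6.69, 7.39 and 6.77 with IL-1β, a rise of 1.88 ± 0.17 (adjusted p = 0.0011). Lumican (Lum) rose by 1.77 ± 0.24 (adjusted p = 0.00708), while fibromodulin (Fmod, NM_021355) went from -2.24, -0.87 and -2.24 to -3.88, -2.76 and -3.52 and fell by 1.60 ± 0.16 (adjusted p = 0.00172). For all 3 genes the array of run 2 was the highest of its group. Ltbp2, a latent-TGFß-binding protein family member of elastic fibres, rose by 0.83 ± 0.10 (adjusted p = 0.00325). The other small leucine-rich proteoglycans of the list, Bgn, Ogn and Prelp, gave -0.11, -0.61 and -0.04 and were not called, and Fn1 and Lox gave -0.07 and 0.21. None of the 4 was called without the run as a block, with adjusted p-values from 0.143 for Dcn to 0.701 for Lum.

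Collagens lay below their controls more often than above. Of 19 tested genes 3 fell (15.8%, against 0.377% of all tested genes) and none rose, and the median was -0.40. Col6a2, a chain of beaded-filament collagen, fell by 0.67 ± 0.11 (adjusted p = 0.0173). The basement-membrane chain Col4a2 fell by 0.65 ± 0.08 (adjusted p = 0.00511), and its partner Col4a1 fell by 0.59 ± 0.08 (adjusted p = 0.00944). The groups of Col4a1 and Col4a2 overlapped, since IL-1β array 10 lay above control 1. Without the run as a block these 3 calls were lost (0.651, 0.779 and 0.826). The fibrillar chains Col1a1 and Col1a2 gave -0.23 ± 0.09 and -0.12 ± 0.06 and were not called, and Col3a1 gave -0.46 ± 0.09, under the fold-change of 1.5 (adjusted p = 0.0443).

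Single members rose in the lists of inflammatory enzymes. Ptgs2 (cyclooxygenase-2), the inducible enzyme of prostaglandin synthesis, measured -1.44, -2.78 and -1.73 in the controls and -0.32, -1.54 and -0.51 with IL-1β. The groups overlapped. Each IL-1β array exceeded the control of its run by 1.12 to 1.23 log2 units, but in runs 2 and 3 these arrays lay on different slides. Within slide 2, with 1 array a group, the Ptgs2 difference was 2.27. Its fold-change was 1.19 ± 0.24 (adjusted p = 0.0464), and without the run the adjusted p was 0.615. It was the 1 call among 12 tested genes of the pathway (8.33%, against 1.12% of all tested genes called higher, median 0.07). The synthase Ptges gave 0.07 ± 0.05. Gch1, which makes the cofactor of nitric oxide synthases, rose by 1.33 ± 0.17 (adjusted p = 0.00558), and the mitochondrial superoxide dismutase Sod2 by 0.76 ± 0.11 (adjusted p = 0.00994). They were the 2 calls among 20 oxidative and nitrosative enzymes (10%, against 1.12% of all tested genes called higher, median 0.08). Both were still called without the run (0.00404 and 0.0258), whereas Nos2 gave 1.11 ± 0.40 and was not called. Ch25h, which makes 25-hydroxycholesterol, rose by 2.52 ± 0.32 (adjusted p = 0.0052, and 0.127 without the run). It was the 1 call among 29 genes of cholesterol and fatty acid synthesis (3.45%, against 1.12% of all tested genes called higher). The median of the 29 was -0.21, and 16 of them were lower at an unadjusted p < 0.05, against 9.54% of all genes.

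Icam1 (NM_010493), which binds leukocyte integrins, measured -4.17, -3.69 and -3.31 in the controls and -2.06, -1.96 and -1.42 with IL-1β. It rose by 1.91 ± 0.23 (adjusted p = 0.00435), although a second, not called probe gave 0.09. Without the run the adjusted p was 0.00619. It was the 1 call among 14 adhesion molecules (7.14%, against 1.12% of all tested genes called higher, median 0.25). Vcam1 gave 0.43 ± 0.10 at its brightest probe and was not called there, while its other probe was called at 0.63. Of 34 interferon-stimulated genes, 2 rose (5.88%, against 1.12% of all tested genes) and none fell (median 0.07). Gbp2 rose by 1.07 ± 0.16 (adjusted p = 0.0114) and Ifit2 by 0.62 ± 0.10 (adjusted p = 0.0186), both lost without the run (0.218 and 0.392). Isg15 gave 0.07 ± 0.34 and Irf7 0.03 ± 0.35. Of 19 SOCS and STAT3 target genes, 2 rose (10.5%, against 1.12% of all tested genes) and none fell (median 0.24). Cebpd (C/EBPδ, NM_007679), a transcription factor of the acute-phase response, went from 2.00, 2.47 and 2.46 to 3.40, 3.81 and 4.00. It rose by 1.43 ± 0.11 (adjusted p = 0.000345, and 0.0106 without the run). The other call was Il13ra2, the decoy receptor of IL-13, at 1.71 ± 0.36 (adjusted p = 0.0494, and 0.0795 without the run). Socs3 gave 0.61 ± 0.18 with groups that did not overlap, and was not called (adjusted p = 0.152).

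No call was made among 17 myofibroblast contractile genes (median -0.19), 27 genes of the TGFß and BMP pathway (median -0.01), 32 proliferation genes (median -0.07) or 23 genes of glycolysis and hypoxia (median -0.09). At an unadjusted p < 0.05 by limma, there were 0 higher and 7 lower contractile genes, 4 and 3 of the TGFß and BMP pathway, 2 and 4 of proliferation, and 1 and 4 of glycolysis. Over all tested genes 7.24% were higher and 9.54% lower at this threshold. Acta2 gave -0.19 ± 0.14 and Tagln -0.55 ± 0.18, both with overlapping groups. Tgfb1 gave 0.47 ± 0.08 (adjusted p = 0.0167), under the fold-change of 1.5, and the proliferation marker Mki67 gave -0.09 ± 0.06.

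**Figure D4:**
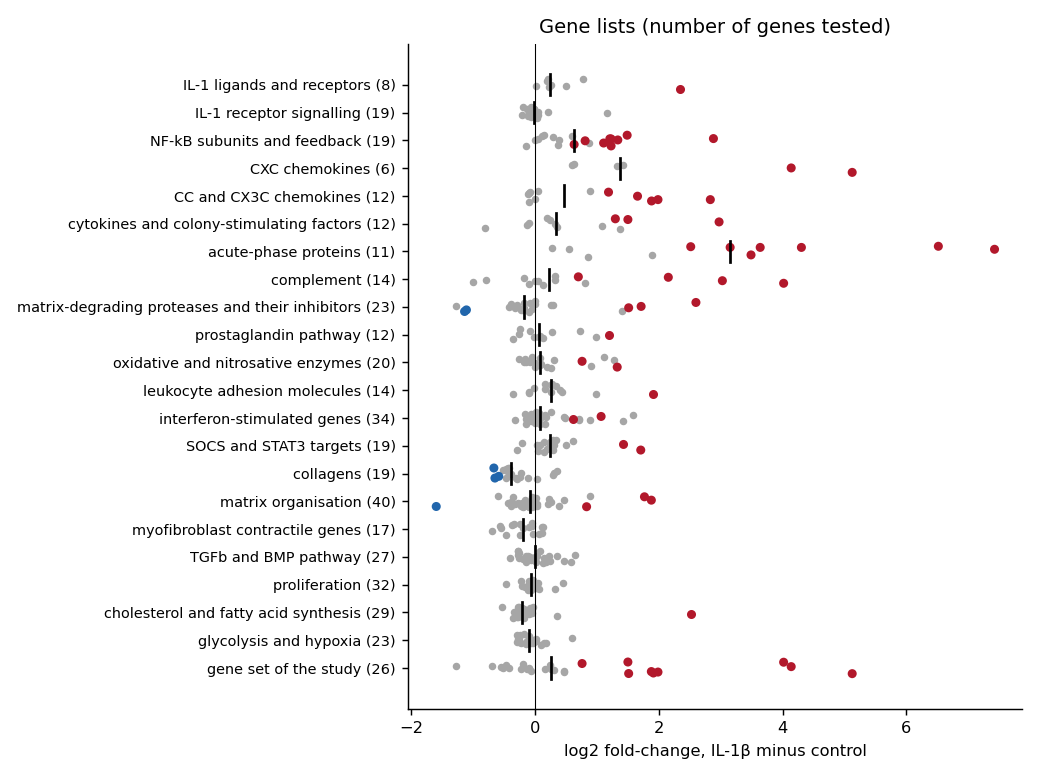
Each point is 1 tested gene, placed by its log2 fold-change of IL-1β minus control, in 22 lists with the number of tested genes in brackets. Black bars are list medians, red points are genes called higher, blue points genes called lower and grey points not called. Over the tested genes, the acute-phase list has the highest median (3.15) and the collagens the lowest (-0.40).

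The largest falls were smaller than the rises and came from genes of varied function. The non-coding RNA 1600025M17Rik (NR_038168) measured -0.54, -0.29 and 0.44 in the controls and -2.48, -2.16 and -1.66 with IL-1β. It fell by 1.97 ± 0.21 (adjusted p = 0.00207). The keratin Krt15 (NM_008469) went from 0.54, 0.46 and 0.75 to -1.89, -0.84 and -0.94. It fell by 1.81 ± 0.19 (adjusted p = 0.00207). Mest (NM_001252292), an imprinted gene expressed from the paternal allele, went from -0.34, 0.64 and 0.10 to -2.13, -1.23 and -1.05. This was a fall of 1.60 ± 0.26 (adjusted p = 0.0186), and a second probe of the gene was 4-fold lower and not called (adjusted p = 0.218).

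Rgcc, a regulator of the cell cycle, fell by 1.44 ± 0.24 (adjusted p = 0.019), and the acyltransferase Gpat2 fell by 1.62 ± 0.26 (adjusted p = 0.0177). The basement-membrane laminin chain Lama5 measured 0.16, -0.32 and 0.69 in the controls and -1.13, -0.92 and -0.75 with IL-1β. Its fall of 1.11 ± 0.08 had the smallest adjusted p of the named falls (0.000276). Gli1, the transcription factor induced by Hedgehog signalling, fell by 0.90 ± 0.12 (adjusted p = 0.00558), and Klhdc8a fell by 1.17 ± 0.20 (adjusted p = 0.019). Fmod and Adamts5, described above, complete the 10 largest falls whose groups did not overlap. Without the run as a block, 1600025M17Rik and Mest were still called (adjusted p = 0.0468 and 0.0227). The other 8 were not, with adjusted p-values from 0.0598 for Krt15 to 0.595 for Adamts5.

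Direct comparisons showed where the IL-1β arrays differed from those of the other cytokines. The cytokines were given at different doses, and no dose series was run. Whether a difference followed the cytokine or its dose was therefore not tested. The labels did not assign a culture time to the IL-1β arrays, so equal times could not be checked. Against TNFα, 1730 probes (5.9%) were higher and 1343 (4.58%) lower with IL-1β. Against IL-6, 300 (1.02%) were higher and 218 (0.743%) lower, and against TGFß1, 3805 (13.0%) were higher and 2692 (9.18%) lower. At 32 probes (0.109%) the IL-1β arrays were higher than each of the 4 other groups by the same criteria. At 0 probes (0.0%) were they lower than each, by limma, and at an unadjusted p < 0.05 in all 4 comparisons there were 2.

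Lcn2 stood furthest above the other 4 groups. Its TNFα arrays measured -3.47, -2.79 and -3.78, within the range of the controls, and its IL-6 arrays -1.71, 1.91 and -1.10. IL-1β exceeded TNFα by 6.88 ± 0.64 (adjusted p = 0.000118) and IL-6 by 3.67 ± 0.62 (adjusted p = 0.0136). Cxcl5 exceeded TNFα by 2.20 ± 0.09 (adjusted p = 2.66e-06) and IL-6 by 4.01 ± 0.09 (adjusted p = 1.34e-07), while the TGFß1 arrays, at -2.74, -2.75 and -2.81, lay below the controls. Cbr2 (NM_007621), a carbonyl reductase, measured 1.26, 1.94 and 1.94 in the controls, 2.77, 4.31 and 3.45 with IL-1β and -2.43, -1.59 and -2.26 with TNFα. It rose by 1.80 ± 0.17 against control (adjusted p = 0.00125, and 0.131 without the run) and exceeded TNFα by 5.58 ± 0.17 (adjusted p = 1.02e-06).

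Zc3h12a exceeded TNFα by 1.67 ± 0.27 (adjusted p = 0.00226) and TGFß1 by 1.12 ± 0.27 (adjusted p = 0.00764), with IL-1β and TGFß1 arrays that overlapped. Wdyhv1 (NM_029734), an amidase of amino-terminal glutamine, measured 0.38, 0.57 and 0.43 in the controls and 1.46, 1.69 and 1.83 with IL-1β. Its rise of 1.20 ± 0.06 was called (adjusted p = 5.98e-05, and 0.000166 without the run), whereas a second probe gave -0.09.

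**Figure D5:**
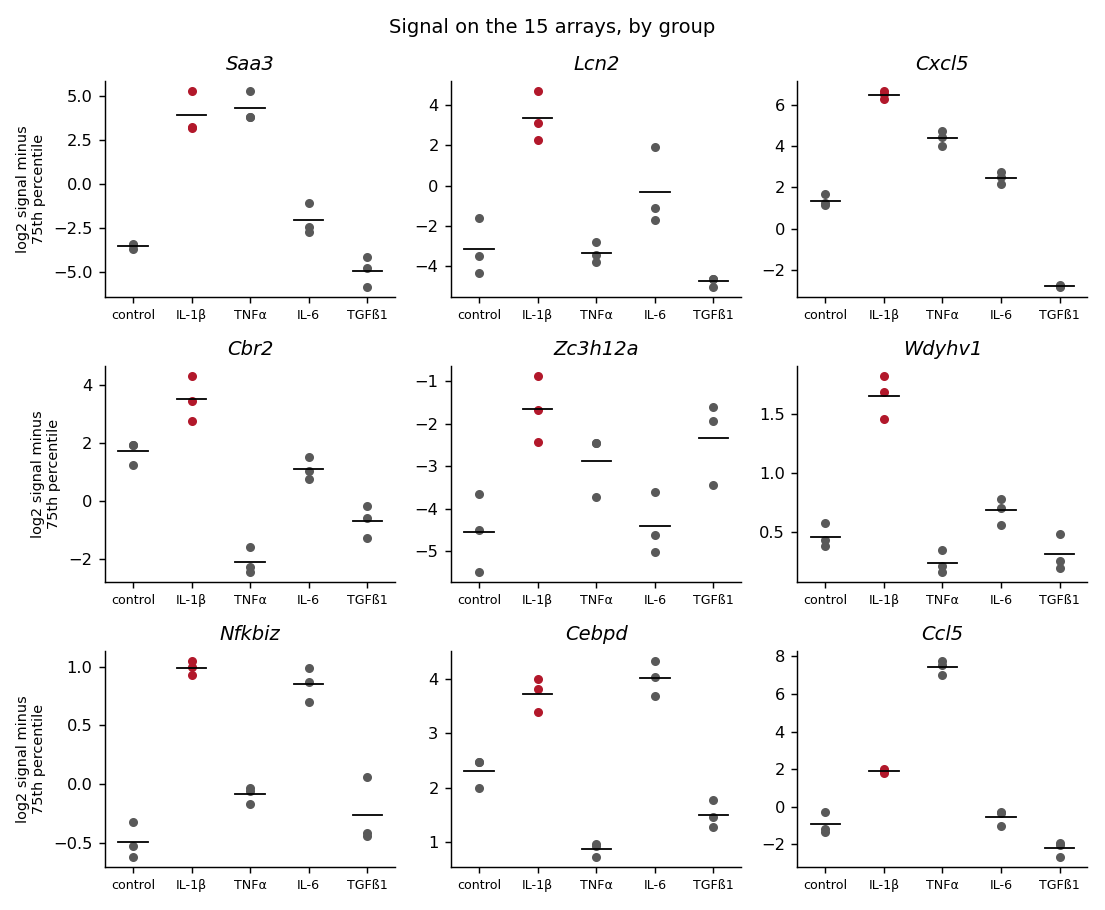
Points are the log2 signal minus the 75th percentile on the 15 arrays, 3 for each group, and bars are group means, with its own y axis for each of 9 genes. IL-1β arrays are in red. Lcn2, Cxcl5, Cbr2 and Wdyhv1 are highest with IL-1β, Nfkbiz and Cebpd are high with IL-1β and IL-6, and Ccl5 is highest with TNFα.

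Several lists held genes that IL-1β and TNFα moved unequally at the doses given. Over all tested probes, 5.9% were higher and 4.58% lower with IL-1β than with TNFα. The list counts are at 1 probe a gene, for which no overall share was computed. Of the 11 tested acute-phase genes, 5 were higher with IL-1β than with TNFα and none lower. Hp, for example, exceeded TNFα by 2.31 ± 0.28 (adjusted p = 0.000466) and differed from IL-6 by -0.02 ± 0.27 (adjusted p = 0.991). Saa3 and Slpi differed from TNFα by -0.35 ± 0.64 and 0.06 ± 0.41, neither called. Of the 19 NF-κB genes, 2 were higher with IL-1β than with TNFα (Nfkbiz and Zc3h12a) and 11 lower. The difference of IL-1β minus TNFα was -2.46 ± 0.07 for Tnfaip3 (adjusted p = 8.46e-07). Nfkbiz exceeded TNFα by 1.03 ± 0.12 (adjusted p = 0.000332) and differed from IL-6 by 0.14 ± 0.11 (adjusted p = 0.693).

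Cebpd and Il6 were also higher with IL-1β than with TNFα. Against control, TNFα itself lowered Cebpd by limma (-1.47, adjusted p = 1.66e-05) and left Il6 at 0.01 (adjusted p = 0.988). Cebpd exceeded TNFα by 2.90 ± 0.11 (adjusted p = 2.66e-06) and differed from IL-6 by -0.28 ± 0.11 (adjusted p = 0.248). Il6 exceeded TNFα by 1.49 ± 0.23 (adjusted p = 0.00148) and differed from IL-6 by -0.02 ± 0.22 (adjusted p = 0.991). In contrast, 30 of the 34 interferon-stimulated genes were lower with IL-1β than with TNFα and none was higher. Ccl5 (IL-1β minus TNFα -5.59 ± 0.33, adjusted p = 1.38e-05) and Icam1 (-4.03 ± 0.24, adjusted p = 1.25e-05) were also lower. Of the 12 CC and CX3C chemokines, 8 were lower and 2 higher with IL-1β than with TNFα. Of the 19 collagens, 13 were higher with IL-1β than with TNFα and 1 lower. The shares over all tested probes were 5.9% higher and 4.58% lower.

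The study combined 26 genes to describe fibroblast polarization. It chose them with TNFα and TGFß1 arrays that share these controls, so the 26 genes are not independent of these controls. Pathway membership and, where applicable, detection of the protein by mass spectrometry were further criteria. Conventional markers, among them Acta2, Col1a1 and Il6, were always included. With IL-1β, 9 of the 26 rose (Cxcl5, Cxcl1, C3, Ccl2, Icam1, Dcn, Mmp3, Il6 and Sod2). This was 34.6%, against 1.12% of all tested genes. None was called lower, and the median was 0.25. At the unadjusted threshold used above, by limma, 12 of the 26 were higher and 6 lower, against 7.24% and 9.54% of all tested genes. The lowest was Tfpi2, at -1.28 and not called. The genes of the set for contractile cells and collagen type I were not called, among them Acta2, Tagln and Col1a1, whose values are given above.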

How the data were processed

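RNA of 3T3 MEFs was labelled with cyanine 3 and hybridised by the authors to 1-colour Agilent mouse arrays. The deposited scanner files hold spot intensity as processed by Agilent Feature Extraction 10.7.3.1 (per the labels), background-subtracted and detrended within each array, with no normalization between arrays. The series table, deposited by the authors, holds the same intensity values. The deposited quality marks (outlier, well above background) were used as given. Spots marked as outliers were left out, spots of a probe were averaged and log2 values were scaled to the 75th percentile of each array, 508 to 683 intensity units. A probe was tested where all arrays of any of the 5 groups marked it well above background (29334 of 56605), 385 of the tested only through the IL-1β arrays (4 of these were called higher). The accessions of 33767 probes were named through RefSeq, and a gene's probe of highest mean over the 15 arrays stood for the gene. Probe cross-hybridisation was not checked.

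Models were fitted with limma 3.58.1 in R 4.3.3 on all 15 arrays, with group, slide and run as terms (7 residual degrees of freedom), and p-values were Benjamini-Hochberg adjusted over all tested probes. Of the tested probes, 34 lacked a value on at least 1 IL-1β or control array. The run is an inference from label numbers (1-5, 6-10, 11-15). After group and slide were removed, deviations of same-run arrays correlated at 0.114 to 0.671 in all 30 pairs. The number of arrays limits the precision. Named genes were all IL-1 ligands and receptors, the 10 largest called rises and falls without overlap, in each other list up to 5 calls in each direction and its first 3 members, and the 5 genes furthest above or below every other group. A probe below background in a whole group is given as a bound against the dimmest detected signal. The members and lists were chosen with earlier results of these data known.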

Additional observations from a re-analysis of the deposited data

How the results depend on the processing

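The series table gave the same 320 calls as the scanner files. There were 314 calls with quantile scaling, 313 with the 75th percentile of detected probes, 247 with normexp and 265 among probes detected on all 15 arrays, of which 288, 304, 205 and 231 were among the 320. The run as a random block gave 276 (249 among the 320, and 42 lower). Without the slide there were 163 calls (136 higher, 27 lower), with no replicate block and the slide kept 105 (97 and 8), and with neither 74 (72 and 2). Without a filter on dim probes there were 201 (150 higher). Fits of the 6 arrays alone gave 14 calls with both blocks and 11 with none, 0 of them lower (3563 and 797 probes at an unadjusted p < 0.05). Slide 1 alone gave 2 calls (2 higher, 0 lower) and slide 2 alone 1 (0 higher, 1 lower), at 2233 and 4070 probes with an unadjusted p < 0.05. Slide 2 held 1 control and 1 IL-1β array, assumed to vary like the other groups. The cause of these losses was not tested. Without a fold-change threshold 560 probes were called (198 lower), and at a fold-change of 2 there were 154 (132 and 22).

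Leaving out 1 array gave 154 (IL-1β 15) to 241 (IL-1β 10) calls, 130 to 177 higher and 21 to 64 lower. Without control 1, 6 or 11 or IL-1β 5 there were 197, 186, 189 and 163. Probes higher than each other group numbered 32, against 15 without the slide, 9 with no replicate block, 7 with neither, 20 without the filter, 9 at a fold-change of 2, 0 within either slide and 16 to 25 with 1 array left out. Probes lower than each numbered 0, against 1 without a fold-change threshold and 0 to 2 with 1 array left out. Without control 1, Serping1 gave 1.55 (log2) in place of 2.15 and was not called. No called named gene changed sign under any alternative run. Of the 60 called named genes, 57 stayed called under quantile scaling, 54 under normexp, 47 without the filter, 43 without the slide and 28 with no replicate block. Across the alternatives that kept all 15 arrays, 51 probes of 41 genes stayed called, all higher. Extending promoters by 50 bases past the start gave κB, C/EBP, AP-1 and ISRE letters in 16.5%, 21.4%, 19.4% and 15.5% of the genes called higher. The scan time coincided with the slide and was not run as a separate block. Signal over background limited 15 of the probes called higher, which were below it on all control arrays.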
